A study of Mus musculus with 24 samples.

Results

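The nuclear genes for subunits of the oxidative phosphorylation complexes were followed through the differentiation of C2C12 cells, a mouse line of skeletal myoblasts that form myotubes when serum is lowered. A gene was counted as a member where a probe set of the array carried its symbol alone and the symbol began with Ndufa, Ndufb, Ndufc, Ndufs, Ndufv, Sdha to Sdhd, Uqcr, Cyc1, Cox4i, Cox5, Cox6, Cox7, Cox8 or Atp5, with the assembly factors left out. The rule found 83 genes of 18194 on the array, measured by 170 of 45101 probe sets. For each gene the probe set with the highest mean over all arrays was used. The members comprised 36 genes of complex I, 4 of complex II, 9 of complex III, 17 of complex IV and 17 of complex V. They were assigned by symbol, which places Ndufa4 with complex I, although its protein is known today as a subunit of complex IV. None of the 13 subunits that mitochondrial DNA encodes is named alone by a probe set here, so the values concern nuclear genes.

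RNA was measured on 24 Affymetrix mouse arrays, 3 at each of 8 time points. Cells in growth medium with 10% fetal bovine serum were taken at 50% confluency (Day -1) and at 90% confluency (Day 0). Cells in reduced serum were taken after 6 hours (Day 0.25) and on Day 1, Day 2, Day 3, Day 4 and Day 5. Reduced serum was 2% by the sample labels, while the methods of the study name a higher value. All groups were of 1 cell line with no other treatment, and neither labels nor methods state whether the 3 replicates are different cultures. The p-values below therefore measure only the spread between arrays.

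In the inner mitochondrial membrane, complex I oxidizes NADH and complex II oxidizes succinate. Complex III carries the electrons on to cytochrome c, complex IV passes them to oxygen, and complex V uses the proton gradient so formed to make ATP. Several subunits of complex IV come in pairs, one made in most tissues and one made mainly in heart and skeletal muscle, and adult muscle carries the muscle forms. Differentiating myoblasts are known for a growing demand for oxidative ATP production.

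A level below is an intensity as the authors normalized and scaled it. Intensities of different probe sets do not give the relative abundance of their genes, so only changes within a probe set are described. Array medians ranged from 3.64 to 3.88 in intensity, which puts a value under 10 close to the floor of the scale. A mean level of at least 100 at 1 or more time points was required for a test, and 74 members met it, as did 13735 probe sets in all. The skeletal muscle markers (Myod1, Myog, Des, Ckm, Myh3, Acta1, Tnnt3, Ryr1, Mymk and Chrna1) summed to between 53559 and 63144 on Day 5, against 8151 to 8207 on Day -1, and all 10 were higher on Day 5, 4 of which (Ckm, Tnnt3, Ryr1 and Mymk) met the filter only at some time points. The 7 mitosis genes measured summed to between 461 and 920 on Day 5, against 12881 to 13888 on Day -1, and all 7 were lower on Day 5. Of these, Mki67, Plk1, Aurkb and Bub1 met the filter only at some time points. None of 8 cardiac markers (summing to 37.4 to 43.9 on Day 5, against 80.6 to 91.1 on Day -1) and of 5 macrophage markers reached a level of 100. Of 8 adipocyte markers, Adipoq, Fabp4, Cidec, Lep, Ucp1 and Cidea stayed below it. Of the 2 tested, Lpl was higher and Pparg was lower on Day 5, and Pparg met the filter only at some time points. All 8 adipocyte markers summed to 3299 to 4825 on Day 5, against 564 to 714 on Day -1. This sum was mostly Lpl (4008 ± 770 on Day 5 and 428 ± 80.5 on Day -1, SD, n = 3 each), which muscle also makes. The part of these markers in the results was not tested. The log2 ratio of the 3' to the 5' control probe set averaged between -0.45 and -0.39 at the 8 time points for Gapdh and between 0.23 and 0.31 for Actb.

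The arrays of 1 time point differed in the level of the subunit genes as a whole. With each gene centred on its mean over 24 arrays, the median of the 74 genes on the 3 Day -1 arrays was 0.01, -0.38 and -0.07 on the log2 scale. The Day 0 arrays, at 0.17, 0.33 and 0.33, were all above 0. The Day 0.25 arrays gave -0.18, 0.16 and -0.27, the Day 2 arrays -0.32, 0.19 and -0.26, and the Day 5 arrays -0.11, -0.22 and 0.31. On Day -1, Day 0.25, Day 2 and Day 5, 1 array thus stood apart from the other two. The same median over all probe sets tested lay between -0.08 and 0.07 on every array. The counts below are therefore given with and without the arrays that move them. The part of this array difference in the results was not tested.

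**Figure D1:**
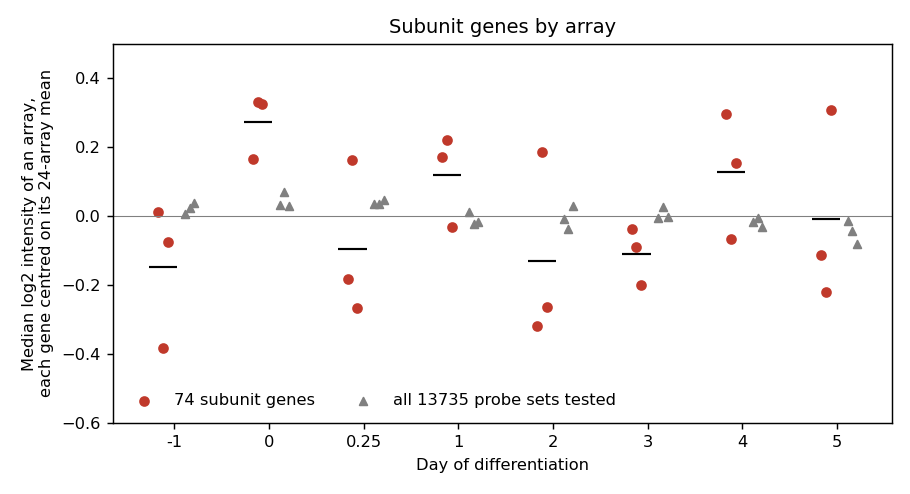
Median log2 intensity of the 74 subunit genes tested on each array (red points, with each gene centred on its mean over 24 arrays) and of all 13735 probe sets tested (grey triangles), by day of differentiation. Black bars give the mean of the 3 arrays of a day. The subunit genes spread from -0.38 to 0.33 among arrays, and all 3 Day 0 arrays lay above 0.

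Of the 74 subunit genes tested, 72 had a mean level of at least 100 at every time point. The other two were Cox6a2 and Cox8b, which met the filter only through their higher days and so had to differ. The 8 means of 68 genes stayed within a 2-fold range, a count not made for all probe sets. The exceptions were Ndufa13, Uqcr10, Uqcrq, Atp5g1, Cox6a2 and Cox8b. Narrow ranges were found for Sdha (1.14-fold), Uqcrb (1.19-fold), Uqcrc2 (1.21-fold), Atp5c1 (1.21-fold) and Atp5b (1.21-fold). Over the 8 time points, limma's moderated F test called 46 of the 74 genes at an adjusted p under 0.05, against 88.8% of all probe sets tested. This count was 15 without replicate 1 of every time point, 57 without replicate 2 and 16 without replicate 3. On the probe sets used, 16 genes had no call in any of the 6 comparisons below, a share not computed for all probe sets. These were Ndufa4, Ndufa9, Ndufab1, Ndufb2, Ndufb8, Ndufc1, Sdha, Uqcrb, Uqcrh, Cox7a2, Atp5b, Atp5c1, Atp5j, Atp5md, Atp5mpl and Atp5o. Another probe set of Ndufb2, Ndufc1, Sdha, Uqcrb, Uqcrh, Cox7a2 and Atp5o was called in at least 1 of the comparisons.

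The largest changes among the subunit genes were those of Cox6a2 and Cox8b, the muscle forms of subunits VIa and VIII of cytochrome c oxidase in rodents. The Cox6a2 intensity was 2.09, 2.03 and 2.04 on Day -1, 134, 172 and 146 on Day 0, and 2.23, 2.21 and 2.02 on Day 0.25. It was 55.3, 55.0 and 81.1 on Day 1, 503, 942 and 450 on Day 2, and 1452, 1539 and 1217 on Day 3. On Day 4 the arrays gave 2542, 1417 and 2426, and on Day 5 1959, 1437 and 2730. Every array of Day 2 and later was above every earlier one, and the arrays of Day 0 stood apart from those of the time points before and after. The log2 fold change was 9.91 ± 0.26 (SE) on Day 5 against Day -1 and 3.25 ± 0.26 on Day 2 against Day 1 (limma, adjusted p = 4.77e-17 and 2.91e-08). The first of these rests on Day -1 values close to the floor of the scale, and with values below 50 raised to 50 it was 5.30. A second probe set of Cox6a2, with a lower mean of 66.6, changed by 7.22 on Day 5 against Day -1 (adjusted p = 1.47e-10) and was likewise higher on Day 2 than on Day 1 (adjusted p = 8.28e-06). On Day 0 against Day -1 the 2 probe sets differed, with a change of 6.19 (adjusted p = 4.29e-13) on the first and of 0.74 (adjusted p = 0.252) on the second.

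Cox8b was likewise highest from Day 2 on, but its Day 0 arrays lay below those of Day 1, where those of Cox6a2 lay above. Its intensity was 3.15, 3.28 and 3.08 on Day -1, 45.7, 54.9 and 51.3 on Day 0, and 4.07, 5.17 and 5.51 on Day 0.25. It was 64.4, 65.2 and 68.1 on Day 1, 190, 371 and 177 on Day 2, and 283, 320 and 278 on Day 3. It reached 599, 288 and 596 on Day 4 and 362, 197 and 549 on Day 5, so that the arrays of Day 2 to Day 5 overlapped one another and lay above all earlier ones. The log2 fold change was 6.74 ± 0.31 on Day 5 against Day -1 and 1.82 ± 0.31 on Day 2 against Day 1 (limma, adjusted p = 2.36e-13 and 0.000119). With values below 50 raised to 50 the first was 2.76. On the probe sets used, both genes were higher on Day 0 than on Day -1 and lower on Day 0.25 than on Day 0. The log2 fold changes on Day 0.25 against Day 0 were -6.12 (Cox6a2) and -3.37 (Cox8b) (limma, adjusted p = 1.50e-12 and 8.64e-08). These sizes rest on values close to the floor of the scale. The second probe set of Cox6a2 gave -0.74 in this comparison (adjusted p = 0.249). With values below 50 raised to 50, the change on Day 0.25 was -1.58 for Cox6a2 (adjusted p = 5.89e-05) and -0.06 for Cox8b (adjusted p = 0.909), and that on Day 0 against Day -1 was 1.58 (adjusted p = 4.72e-05) and 0.06 (adjusted p = 0.914). The muscle markers summed to between 19321 and 20513 on Day 0 and between 16988 and 19358 on Day 0.25, and 4 of the 10 were lower on Day 0.25. Fewer cells of a type and less RNA per cell cannot be told apart in these bulk samples.

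The third gene of this kind, Cox7a1, which encodes the form of subunit VIIa found in heart and skeletal muscle, did not reach the level filter. Its intensity lay between 4.93 and 23.0 over 24 arrays, with the highest mean on Day 0 (16.8 ± 6.02, SD, n = 3). On Day 5 it was 6.20, 4.93 and 6.76, against 10.1, 6.86 and 10.0 on Day -1. Every Day 5 value was below every Day -1 value, all of them close to the floor of the scale. Cox7a1 was measured by 1 probe set, and its low intensity does not give the level of the RNA.

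The partners made in most tissues were measured on the same arrays. Cox6a1 gave 4494, 4545 and 6200 on Day 5, against 6600, 5769 and 6346 on Day -1, and these values overlapped. Its log2 fold change was -0.31 ± 0.12 (adjusted p = 0.0303), a call that was lost without Day 5 replicate 1 (adjusted p = 0.138), Day 5 replicate 2 (0.128), Day -1 replicate 1 (0.0974) or Day -1 replicate 3 (0.0718). Cox8a gave 1230, 1195 and 1981 on Day 5, against 1436, 1071 and 1309 on Day -1, with a log2 fold change of 0.18 ± 0.20 (adjusted p = 0.427). Cox7a2 averaged 3903 ± 846 on Day 5 and 4043 ± 433 on Day -1 (SD, n = 3 each), a log2 fold change of -0.07 ± 0.15 (adjusted p = 0.709). The changes of these 3 partners on Day 5 thus lay between -0.31 and 0.18 on the log2 scale.

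The change of a muscle form relative to its partner was taken as the per-array log2 difference of the pair on Day 5 minus that on Day -1, for 8 pairs. It was 10.22 for Cox6a2 and Cox6a1 and 6.57 for Cox8b and Cox8a (two-sided exact permutation test, p = 0.1 each, adjusted p = 0.2 over 8 pairs). With 3 arrays against 3, a p of 0.1 is the smallest this test can give. The change was -0.51 for Cox7a1 and Cox7a2 (exact p = 0.1, adjusted p = 0.2), but with values below 50 raised to 50 it was 0.0664 (exact p = 0.8), against 5.61 for Cox6a2 and 2.59 for Cox8b (exact p = 0.1 each). The pairs of the c subunit of ATP synthase, whose genes encode the same mature protein, changed by 0.29 (Atp5g2 and Atp5g1, exact p = 0.1, adjusted p = 0.2) and 0.19 (Atp5g3 and Atp5g1, exact p = 0.5, adjusted p = 0.571). Cox4i2, Cox6b2 and Ndufa4l2 were below the level filter and changed by -0.15, -0.36 and 0.01 relative to Cox4i1, Cox6b1 and Ndufa4 (exact p = 0.4, 0.3 and 1).

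**Figure D2:**
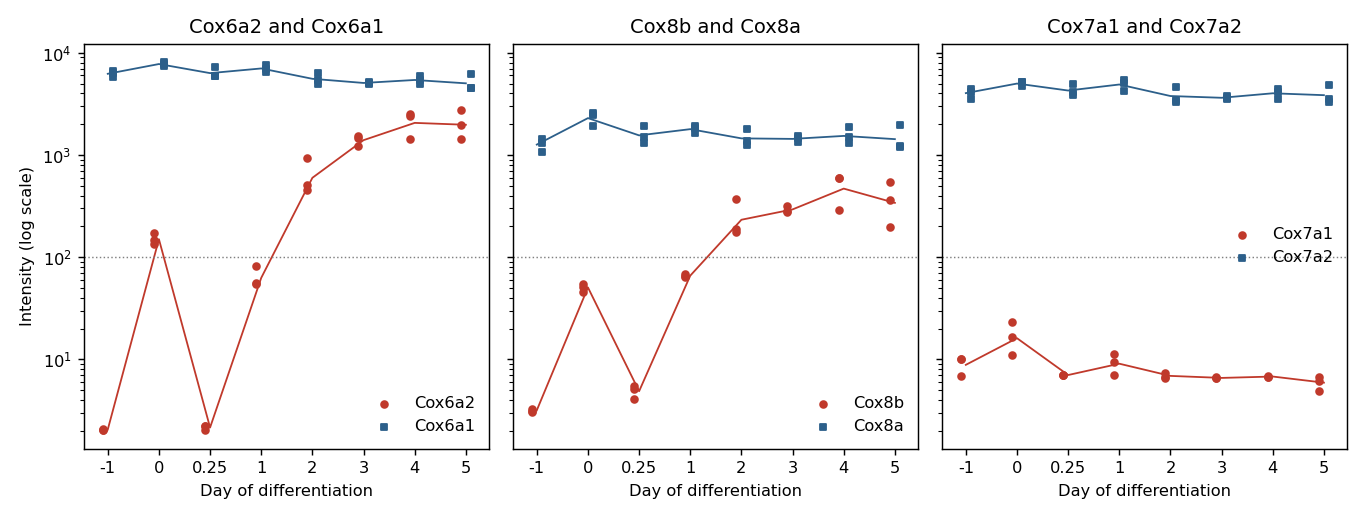
Intensity on a log scale of the muscle forms Cox6a2, Cox8b and Cox7a1 (red circles) and of Cox6a1, Cox8a and Cox7a2 (blue squares) on each of 24 arrays, by day. Lines join geometric means of 3 arrays, and the dotted line is the level filter of 100. Cox6a2 and Cox8b are high from Day 2 on and show a separate rise on Day 0, while Cox7a1 stays at 23.0 or lower.

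The sequences before the start sites are shown for Cox8b, Cox7a1 and the partners Cox8a, Cox7a2 and Cox6a1. This choice follows the muscle forms Cox6a2 and Cox8b, whose changes were the largest among the members but which had to differ. The Cox6a2 promoter is not shown here. The sequences shown were taken from RefSeq (GRCm38.p6), 250 bases up to the start site, written 5′ to 3′ on the strand of the gene. They lie at chr7:140900447-140900696 on the minus strand (Cox8b), chr19:7217617-7217866 on the minus strand (Cox8a), chr7:30183921-30184170 on the plus strand (Cox7a1), chr9:79759854-79760103 on the minus strand (Cox7a2) and chr5:115348959-115349208 on the minus strand (Cox6a1). Capitals mark an E-box (CANNTG, the letters bound by myogenic factors), the letters of an NRF1 site or those of a GABP site (CCGGAAG), on either strand.
Cox8b: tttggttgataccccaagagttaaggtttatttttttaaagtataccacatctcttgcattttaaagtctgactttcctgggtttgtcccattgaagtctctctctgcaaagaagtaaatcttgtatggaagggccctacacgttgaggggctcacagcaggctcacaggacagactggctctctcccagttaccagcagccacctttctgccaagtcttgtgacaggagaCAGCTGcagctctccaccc
Cox8a: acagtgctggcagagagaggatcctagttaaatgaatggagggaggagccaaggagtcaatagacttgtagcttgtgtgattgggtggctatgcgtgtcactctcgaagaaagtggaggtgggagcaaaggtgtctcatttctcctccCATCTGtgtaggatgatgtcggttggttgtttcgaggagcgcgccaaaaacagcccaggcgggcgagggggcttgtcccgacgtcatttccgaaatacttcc
Cox7a1: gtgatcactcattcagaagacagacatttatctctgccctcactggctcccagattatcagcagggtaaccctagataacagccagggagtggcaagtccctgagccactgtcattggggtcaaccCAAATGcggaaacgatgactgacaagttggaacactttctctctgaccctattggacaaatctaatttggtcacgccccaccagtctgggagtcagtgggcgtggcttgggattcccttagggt
Cox7a2: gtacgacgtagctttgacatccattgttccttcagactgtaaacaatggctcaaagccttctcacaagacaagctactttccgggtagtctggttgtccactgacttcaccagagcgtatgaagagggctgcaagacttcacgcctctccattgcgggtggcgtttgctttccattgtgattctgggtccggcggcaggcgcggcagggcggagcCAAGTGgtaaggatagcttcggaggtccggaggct
Cox6a1: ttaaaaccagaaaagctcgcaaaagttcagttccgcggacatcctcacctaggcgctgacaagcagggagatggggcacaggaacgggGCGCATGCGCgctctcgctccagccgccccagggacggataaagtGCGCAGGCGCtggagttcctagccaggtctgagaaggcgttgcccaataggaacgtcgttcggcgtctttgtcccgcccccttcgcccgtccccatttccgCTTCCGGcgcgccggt
The Cox8b window holds 1 E-box, of the form CAGCTG, at positions -19 to -14 from the start site. The Cox8a, Cox7a1 and Cox7a2 windows hold 1 E-box each, of the form CATCTG in Cox8a, of CAAATG in Cox7a1 and of CAAGTG in Cox7a2. The Cox6a1 window holds 2 matches to NRF1 and 1 to GABP and no E-box.

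Promoters of 67 members were matched by gene ID in RefSeq, 72 windows in all from 250 bases before to 50 bases after the start site. Matches to NRF1 were present in 22.2% of the member windows, against 4.60% of 32851 windows of all genes. For GABP the shares were 23.6% and 8.86%, and for the letters of the estrogen-related receptors (AAGGTCA) 11.1% and 4.72%. NRF1 and GABP are known as activators of nuclear genes for respiratory chain subunits. An E-box of any form was found in 66.7% of member windows and 72.3% of all, and the CAGCTG form, which is counted among them, in 8.33% and 16.3%. Letters of SP1 (GGGCGG) were found in 41.7% and 35.7%, and a match to MEF2, a factor of muscle genes, in 0 of 72 member windows and 3.19% of all. Both strands were searched, letters of different motifs may overlap, and a match is only a match of letters.

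The comparison of Day 0 and Day -1 asks what changed as the cells grew to near confluence in growth medium. In it, 38 subunit genes were higher and 1 was lower on Day 0 at an adjusted p under 0.05 (limma), against 23.3% higher and 21.7% lower (45.1% called) among all probe sets tested. The median log2 fold change was 0.44 for the 74 genes and 0.00 for all probe sets, and 71 of the 74 changes were positive. By complex, 18 of 33 genes were higher in complex I, 1 of 4 in complex II, 4 of 9 in complex III, 9 of 11 in complex IV and 6 of 17 in complex V. The 1 gene that was lower was Atp5a1, the alpha subunit of ATP synthase, by -0.25 ± 0.07 (adjusted p = 0.00822). Day 0 held the highest of the 8 means for 49 of 74 subunit genes (66.2%), against 18.8% of all probe sets tested. Without Day -1 replicate 2 the count of genes called was 17, and it was 24 without Day 0 replicate 2 or without Day 0 replicate 3, while the median stayed between 0.33 and 0.53 on leaving out any 1 array of the 2 time points.

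Among genes changed on Day 0, Uqcrq, a small subunit of complex III, gave 3013, 3734 and 3759 on Day 0, against 1790, 1274 and 1428 on Day -1. The groups did not overlap, and the log2 fold change was 1.23 ± 0.19 (limma, adjusted p = 3.34e-05). Uqcr10, another small subunit of complex III, changed by 1.03 ± 0.29 (adjusted p = 0.00721) and is named after its values were seen. Its other 2 probe sets gave 0.53 and 0.50 (adjusted p = 0.135 and 0.204). On the probe sets used, Uqcrq, Uqcr10, Cox6a2 and Cox8b were the 4 genes with a change of 2-fold or more. The sizes for Cox6a2 and Cox8b rest on Day -1 values close to the floor of the scale. A second probe set of Cox6a2 gave 0.74 (limma, adjusted p = 0.252). Cox4i1, a nuclear subunit of complex IV present in most tissues, gave 5093, 5534 and 5443 on Day 0, against 4472, 3498 and 3945 on Day -1, a change of 0.44 ± 0.11 (adjusted p = 0.00387). Ndufv1, which carries the flavin that accepts electrons from NADH, gave 1497, 1540 and 1527 on Day 0, against 1055, 1002 and 1097 on Day -1, a change of 0.53 ± 0.08 (adjusted p = 2.60e-05). The arrays of Day 0 and Day -1 did not overlap for either of these genes. Uqcrfs1, the Rieske iron-sulfur protein of complex III, changed by 0.36 ± 0.10 (adjusted p = 0.00709), and Sdhb, the iron-sulfur subunit of complex II, by 0.55 ± 0.16 (adjusted p = 0.00753).

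After 6 hours in reduced serum, 34 subunit genes were lower and 1 was higher than on Day 0, against 20.9% lower and 22.4% higher (43.3% called) among all probe sets tested. The median log2 fold change was -0.40 for the subunit genes and 0.03 for all probe sets. By complex, 20 of 33 genes were lower in complex I, 0 of 4 in complex II, 2 of 9 in complex III, 7 of 11 in complex IV and 5 of 17 in complex V. The gene that was higher was again Atp5a1, with 4914, 4446 and 4853 on Day 0.25, against 3702, 3805 and 3668 on Day 0, a change of 0.35 ± 0.07 (limma, adjusted p = 0.000868). Of the 38 genes higher on Day 0, 29 were lower on Day 0.25. Both comparisons use the Day 0 arrays, so this count is not independent of them, and its share among all probe sets was not computed. The 29 include Cox6a2 and Cox8b, whose sizes rest on values close to the floor of the scale. With values below 50 raised to 50, neither change of Cox8b was past the threshold. Ndufv1 was not among the 29, with a change of -0.12 ± 0.08 (limma, adjusted p = 0.251) on the probe set used. Its other probe sets gave -0.28 (adjusted p = 0.0150) and -0.16 (adjusted p = 0.0925), so this gene was called lower on one of them. The count of genes called was 12 without Day 0.25 replicate 1, 10 without Day 0.25 replicate 3, 15 without Day 0 replicate 2 and 19 without Day 0 replicate 3, and the median was between -0.54 and -0.32 on leaving out any 1 array.

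On Day 1 against Day 0.25, 8 subunit genes were higher and 1 was lower, against 11.6% higher and 15.4% lower (26.9% called) among all probe sets tested. The genes higher were Ndufa6, Ndufa13, Ndufb5, Ndufb6, Cox6a2, Cox7a2l, Cox8b and Atp5pb, and Atp5a1 was lower (-0.27 ± 0.07, limma, adjusted p = 0.0102). The means of Cox6a2 and Cox8b lay below the level filter at both time points, and on Day 0.25 they were close to the floor of the scale. With values below 50 raised to 50, neither call was kept (0.33, limma, adjusted p = 0.361 for Cox6a2 and 0.40, adjusted p = 0.337 for Cox8b). The other probe set of Cox6a2 gave 0.44 (adjusted p = 0.543). The median was 0.23 for the subunit genes and -0.05 for all probe sets. The count was 15 without Day 0.25 replicate 2, 3 without Day 0.25 replicate 1 or replicate 3, 4 without Day 1 replicate 1 and 5 without Day 1 replicate 2.

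**Figure D3:**
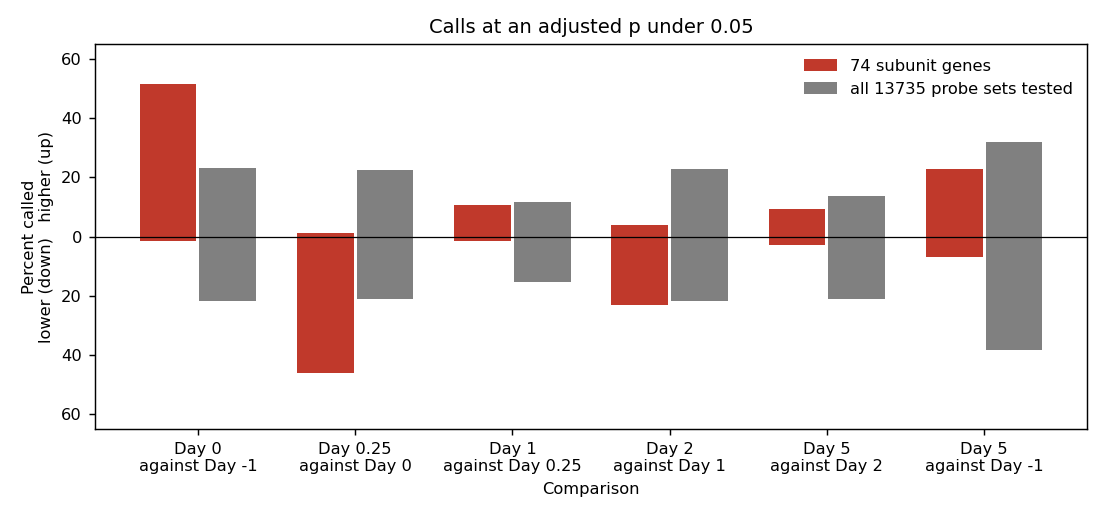
Share of the 74 subunit genes (red) and of all 13735 probe sets tested (grey) called at an adjusted p under 0.05 in 6 comparisons, in percent, with genes higher at the later time point above 0 and genes lower below 0. The subunit genes are mostly higher on Day 0 against Day -1 (38 genes) and mostly lower on Day 0.25 against Day 0 (34 genes).

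The change from Day 1 to Day 2 is the one the study was mainly concerned with. Of the 10 muscle markers 7 were higher on Day 2, with sums between 51253 and 54892, against 29089 to 35667 on Day 1. Of the 74 subunit genes, 66 had a negative change. On Day 2, 17 were lower and 3 were higher than on Day 1, against 21.7% lower and 22.8% higher (44.5% called) among all probe sets tested, and the median log2 fold change was -0.24, against -0.01 for all probe sets. This median was -0.12 without Day 2 replicate 1 and -0.44 without Day 2 replicate 2. The 3 that were higher were Cox6a2, Cox8b and Ndufs1, which carries iron-sulfur clusters in complex I. Cox6a2 and Cox8b met the level filter on Day 2 but not on Day 1, so their calls are not independent of it. Ndufs1 gave 1627, 1479 and 1689 on Day 2, against 1264, 1205 and 1350 on Day 1, a change of 0.33 ± 0.09 (limma, adjusted p = 0.00568) that was not past the threshold without replicate 1 of every time point (adjusted p = 0.105). In complex II 3 of 4 genes were lower, which are Sdhb and the membrane anchors Sdhc and Sdhd. Without Day 2 replicate 1 none of the 3 was past the threshold (adjusted p = 0.147, 0.0783 and 0.0614). The count of genes called was 9 without Day 2 replicate 1, 34 without Day 2 replicate 2, 10 without Day 2 replicate 3, 11 without Day 1 replicate 1 and 10 without Day 1 replicate 2.

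Of the genes lower on Day 2, Cox5a, a nuclear subunit of complex IV, gave 4549, 5761 and 4554, against 7502, 7862 and 7711 on Day 1. The groups did not overlap, and the log2 fold change was -0.64 ± 0.09 (limma, adjusted p = 2.24e-05). Atp5pb, subunit b in the peripheral stalk of ATP synthase, gave 4307, 4870 and 4284 on Day 2, against 6240, 5962 and 6638 on Day 1, a change of -0.49 ± 0.07 (adjusted p = 2.95e-05). Ndufb6, an accessory subunit in the membrane arm of complex I, gave 1870, 2696 and 1895 on Day 2, against 4267, 3798 and 3438 on Day 1, a change of -0.85 ± 0.17 (adjusted p = 0.000581). These 3 calls held on leaving out any 1 array, but other probe sets of these genes gave smaller changes. They were -0.28 (adjusted p = 0.0989) and -0.50 (adjusted p = 0.000891) for Cox5a, -0.36 (adjusted p = 0.0212) for Atp5pb and -0.32 (adjusted p = 0.125) for Ndufb6. Cyc1, the cytochrome c1 of complex III, gave 2449, 2585 and 2545 on Day 2, against 3222, 3276 and 2998 on Day 1, a change of -0.32 ± 0.09 (adjusted p = 0.00487). Atp5g3 changed by -0.34 ± 0.10 (adjusted p = 0.00666), and both calls were lost without replicate 1 of every time point (adjusted p = 0.124 for Cyc1 and 0.116 for Atp5g3). Uqcrfs1 changed by -0.25 ± 0.10 (adjusted p = 0.0479), which was not past the threshold on leaving out any 1 of 5 arrays, with an adjusted p between 0.0640 and 0.244.

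From Day 2 to Day 5 few subunit genes were called. On Day 5, 7 were higher and 2 were lower than on Day 2, against 13.7% higher and 21.1% lower (34.8% called) among all probe sets tested. The genes higher were Ndufa12, Ndufb6, Ndufv1, Cox5a, Cox6a2, Atp5h and Atp5pb, and those lower were Uqcrc1 and Atp5a1. Of the 7, Ndufa12, Ndufb6, Cox5a, Atp5h and Atp5pb were those also lower on Day 2 against Day 1, in comparisons that share the Day 2 arrays. Cox5a gave 5836, 6234 and 6687 on Day 5, against 4549, 5761 and 4554 on Day 2, with a change of 0.34 ± 0.09 (limma, adjusted p = 0.00719). Of 8 genes called here that had several probe sets tested, Cox5a, Atp5a1 and Atp5pb had another of opposite sign, and Ndufa12, Ndufv1, Cox5a and Cox6a2 had another called the same way. The Day 5 mean of Cox5a, 6252, stood beside 6270 on Day -1, a change of -0.00 ± 0.09 (limma, adjusted p = 0.977). The count of genes called was 17 without Day 2 replicate 2, 5 without Day 2 replicate 3 and 5 without Day 5 replicate 3.

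**Figure D4:**
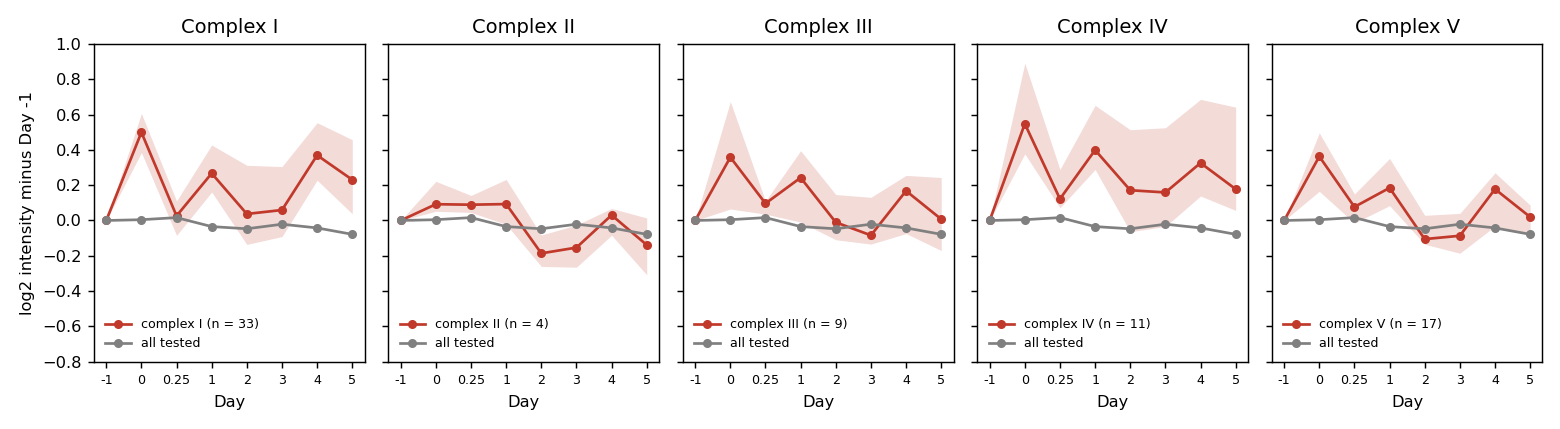
Median log2 intensity minus that of Day -1 over the subunit genes of each complex (red, with the range from the lower to the upper quartile shaded) and over all 13735 probe sets tested (grey), by day. Complexes I, III, IV and V have their highest median on Day 0 (0.50, 0.36, 0.55 and 0.36), and complex II has 0.09 on Day 0.

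Over the whole course, 17 subunit genes were higher and 5 were lower on Day 5 than on Day -1, against 31.9% higher and 38.4% lower among all probe sets tested, so that 22 of 74 subunit genes were called against 70.3% of all. Without Cox6a2 and Cox8b, which had to differ, 20 of 72 were called. The median log2 fold change of the 74 genes was 0.12, and that of all probe sets was -0.08. By complex it was 0.23 (complex I), -0.14 (complex II), 0.01 (complex III), 0.18 (complex IV) and 0.02 (complex V). Apart from Cox6a2 and Cox8b, the changes lay between -0.50 and 1.03 on the log2 scale. With these genes included, 10 of the 74 changed by 1.5-fold or more, all of them higher on Day 5. The share of all probe sets with such a change was not computed. Without Day 5 replicate 3 there were 10 genes higher and 10 lower, with a median of -0.06, and without Day -1 replicate 2 there were 11 higher and 7 lower, with a median of 0.02. These 2 arrays lay farthest from the others of their time points in the array medians above.

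The genes higher on Day 5 were 9 of complex I, 2 of complex III, 4 of complex IV and 2 of complex V. Those of complex IV include Cox6a2 and Cox8b, which had to differ. Ndufa13, an accessory subunit of complex I, gave 1702, 1428 and 2346 on Day 5, against 1067, 724 and 860 on Day -1. The groups did not overlap, and the log2 fold change was 1.03 ± 0.19 (limma, adjusted p = 9.35e-05). Ndufv1 gave 1871, 1592 and 1783 on Day 5, against 1055, 1002 and 1097 on Day -1, a change of 0.73 ± 0.08 (adjusted p = 9.40e-08). Its other 2 probe sets changed by 0.80 and 0.30 (adjusted p = 8.78e-09 and 0.00573). Uqcrq gave 2564, 2124 and 3295 on Day 5, against 1790, 1274 and 1428 on Day -1, a change of 0.82 ± 0.19 (adjusted p = 0.000722). Cox7a2l, a protein that joins complexes III and IV into supercomplexes, is named after its values were seen. It gave 1724, 1660 and 1899 on Day 5, against 1050, 775 and 1049 on Day -1, a change of 0.89 ± 0.12 (adjusted p = 1.45e-06).

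Other rises were smaller or less stable. Uqcrc2, a core protein of complex III, averaged 3859 ± 306 on Day 5 and 3254 ± 134 on Day -1 (SD, n = 3 each), a log2 fold change of 0.24 ± 0.08 (limma, adjusted p = 0.0072). A second probe set of Uqcrc2 gave -0.09 (adjusted p = 0.409), and the call was lost without replicate 2 (adjusted p = 0.127) or replicate 3 (adjusted p = 0.0954) of every time point. Atp5h, subunit d of the peripheral stalk of ATP synthase, changed by 0.49 ± 0.15 (adjusted p = 0.0061), with 4479, 4240 and 6012 on Day 5, against 3936, 2885 and 3660 on Day -1. Without Day 5 replicate 3 its adjusted p was 0.0526, and its second probe set gave 0.05 (adjusted p = 0.762). The 2 probe sets of Atp5pb went opposite ways, with 0.17 ± 0.07 (adjusted p = 0.0424) on the one with the higher mean and -0.33 (adjusted p = 0.0216) on the other. Of 39 genes with several probe sets tested, 14 were called on Day 5 against Day -1. Another probe set was called the same way for 6 of the 14 (Ndufa3, Ndufa7, Ndufv1, Cox6a2, Cox6c and Cox7a2l), and a probe set of opposite sign was found for Uqcrc2, Atp5a1 and Atp5pb, past the threshold for Atp5pb alone.

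The 5 genes lower on Day 5 were Sdhd, Cyc1, Uqcrc1, Cox6a1 and Atp5a1. Atp5a1 gave 3612, 3369 and 3169 on Day 5, against 4264, 4557 and 4484 on Day -1. Its groups did not overlap, and the log2 fold change of -0.39 ± 0.07 (limma, adjusted p = 7.33e-05) held without any 1 array. A second probe set of Atp5a1, with a lower mean of 2389, did not show this change (0.03, adjusted p = 0.722). Sdhd gave 941, 880 and 1119 on Day 5, against 1390, 1270 and 1497 on Day -1, a change of -0.50 ± 0.11 (adjusted p = 0.000496), against -0.11 (adjusted p = 0.422) on its second probe set, which has a lower mean of 332. Uqcrc1, the other core protein of complex III, gave 1418, 1235 and 1199 on Day 5, against 1705, 1529 and 1699 on Day -1, a change of -0.36 ± 0.09 (adjusted p = 0.00101). Cyc1 gave 2718, 2499 and 3003 on Day 5, against 3417, 3071 and 3481 on Day -1, a change of -0.28 ± 0.09 (adjusted p = 0.00683). The Day 5 and Day -1 arrays overlapped for Cox6a1 alone among the 5. The calls of Uqcrc1 and Cyc1 were lost in 2 fits without a replicate of every time point, replicate 3 for Uqcrc1 (adjusted p = 0.0678) and replicate 1 for Cyc1 (adjusted p = 0.0929).

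The other catalytic and core subunits were not past the threshold on Day 5 against Day -1. Sdha, the flavoprotein that oxidizes succinate, gave 2077, 1873 and 1608 on Day 5, against 1501, 1770 and 1686 on Day -1, a change of 0.16 ± 0.11 (limma, adjusted p = 0.191), while its second probe set gave 0.33 (adjusted p = 0.0146). Without Day 5 replicate 3 the adjusted p of the first was 0.048. Atp5b, the catalytic beta subunit of ATP synthase, averaged 7141 ± 299 on Day 5 and 7526 ± 282 on Day -1 (SD, n = 3 each), a change of -0.08 ± 0.08 (adjusted p = 0.418). Ndufs1 changed by 0.10 ± 0.09 (adjusted p = 0.301), Sdhb by -0.03 ± 0.16 (adjusted p = 0.85) and Uqcrfs1 by -0.07 ± 0.10 (adjusted p = 0.525). Cox4i1 changed by 0.15 ± 0.11 (adjusted p = 0.252) and Cox5b, a further nuclear subunit of complex IV, by 0.12 ± 0.21 (adjusted p = 0.626). Sdhc changed by -0.24 ± 0.16 (adjusted p = 0.172), and its adjusted p was 0.0427 without Day 5 replicate 3 and 0.0386 without Day -1 replicate 2.

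**Figure D5:**
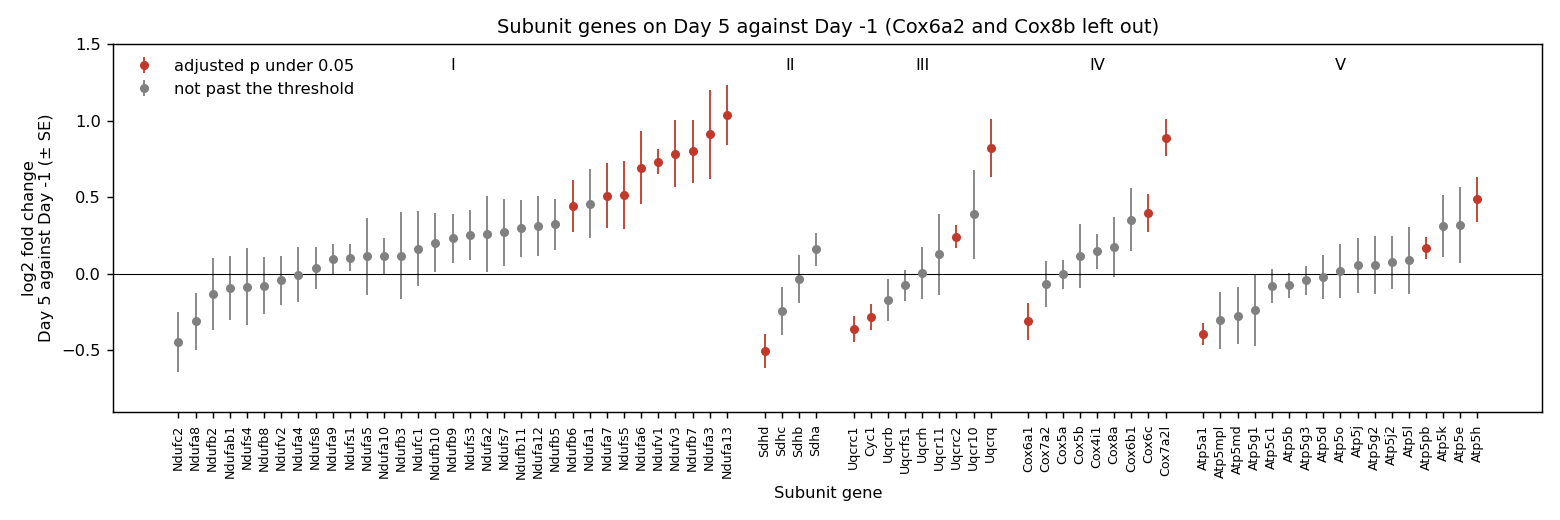
Log2 fold change with its standard error on Day 5 against Day -1 for 72 subunit genes, grouped by complex and sorted within it, with Cox6a2 (9.91) and Cox8b (6.74) left out. Red points passed an adjusted p under 0.05 in limma. Values lie between -0.50 (Sdhd) and 1.03 (Ndufa13).

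The 9 genes below the level filter had low intensities on all arrays of the probe set used. These were Cox7a1, Cox7c (3.82 to 10.1), Ndufb1 (16.6 to 26.4), Ndufb4 (2.02 to 2.10), Ndufa4l2 (1.15 to 1.17), Cox4i2 (2.31 to 2.48), Cox6b2 (2.17 to 2.33), Cox7b2 (2.23 to 2.34) and Cox8c (1.29 to 1.47). Cox6b2, Cox7b2 and Cox8c are known as testis forms and Cox4i2 as a form of lung. Cox7c, Ndufb1 and Ndufb4 encode subunits found in all tissues, so a low intensity of their probe sets does not give the level of the RNA.

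Genes that serve the complexes without being subunits were counted in the same fit on Day 5 against Day -1. Among all probe sets tested, 31.9% were higher, 38.4% were lower and the median was -0.08. Of 37 assembly factors tested, 8 were higher and 13 were lower, with a median of -0.19. Of the 30 with a mean level of at least 100 at every time point, 6 were higher and 9 were lower. Uqcc1, an assembly factor of complex III, averaged 328 ± 55.1 on Day 5 and 121 ± 8.17 on Day -1 (SD, n = 3 each, limma, adjusted p = 3.28e-09). Cox15, which makes heme A for complex IV, averaged 735 ± 24.7 on Day 5 and 332 ± 41.0 on Day -1 (adjusted p = 4.62e-07). Acad9, an assembly factor of complex I, averaged 176 ± 28.0 on Day 5 and 338 ± 36.5 on Day -1 (adjusted p = 6.63e-07). Of 14 genes for the electron carriers coenzyme Q and cytochrome c, 7 were higher and 4 were lower, with a median of 0.17. Coq6, Coq8a and Coq10a met the level filter only at some time points, and of the other 11 genes 5 were higher and 4 were lower, with a median of 0.01. Coq8a, an atypical kinase needed to make coenzyme Q, averaged 1118 ± 317 on Day 5 and 7.82 ± 1.87 on Day -1, where the Day -1 value lies close to the floor of the scale. Coq10a, which binds coenzyme Q, averaged 274 ± 16.3 on Day 5 and 61.9 ± 10.4 on Day -1. Both met the filter only through their higher days and so had to differ. Coq9, which serves the synthesis of coenzyme Q, averaged 501 ± 12.8 on Day 5 and 234 ± 19.4 on Day -1 (adjusted p = 4.32e-08).

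Of 8 mitochondrial carriers and porins tested, 2 were higher and 5 were lower on Day 5 than on Day -1, with a median of -0.27. The shares among all probe sets tested were 31.9% higher and 38.4% lower, with a median of -0.08. The carriers that exchange ADP for ATP were both lower. Slc25a4, the form of heart and muscle, averaged 5413 ± 21.2 on Day 5 and 7023 ± 256 on Day -1 (SD, n = 3 each, limma, adjusted p = 9.79e-05), and Slc25a5 averaged 2951 ± 316 on Day 5 and 5152 ± 170 on Day -1 (adjusted p = 1.49e-07). Slc25a11, the 2-oxoglutarate carrier, averaged 567 ± 30.1 on Day 5 and 792 ± 56.5 on Day -1 (adjusted p = 0.000387). Of 10 transcriptional regulators of mitochondria tested, 4 were higher and 2 were lower, with a median of 0.01. Of the 7 with a mean level of at least 100 at every time point, 3 were higher and 1 was lower, with a median of -0.15. Esrrg, an estrogen-related receptor, averaged 109 ± 43.9 on Day 5 and 3.00 ± 0.022 on Day -1, and Gabpb1, a subunit of GABP, averaged 75.2 ± 12.7 on Day 5 and 185 ± 21.2 on Day -1. Both met the filter only through the days on which they are high and so had to differ. Polrmt, the RNA polymerase of mitochondria, averaged 443 ± 65.6 on Day 5 and 275 ± 32.6 on Day -1 (adjusted p = 0.0006). Ppargc1a, Ppargc1b, Esrrb, Nrf1, Ppara and Ppard did not reach the level filter.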

How the data were processed

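RNA of C2C12 cells was hybridized to 24 Affymetrix mouse 430 2.0 arrays. The deposited values are intensities on a linear scale. The authors used GC-RMA, returned its log values to a linear scale and set the 2% trimmed mean of every array to 150, as the methods of the study state. The processing notes of the submitters list GCRMA together with MAS5, whose use is not explained. Probe sets were named through the annotation of the platform, which gives 34958 of them 1 gene, 932 several and 9211 none. The 10 probe sets of subunit genes that also name another gene were left out, and with them the genes that have no other probe set. Symbols were updated through RefSeq (GRCm38.p6), but Atp5a1 and its kin keep the names used there. The 64 control probe sets were left out.

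All 24 arrays were fitted together on log2 intensities with limma 3.58.1 in R 4.3.3 over the 13735 probe sets whose mean reached 100 at 1 or more of the 8 time points. Moderated t-values were adjusted over all of them by the method of Benjamini and Hochberg, with a threshold of 0.05, and the fit was tested on simulated data. Pairs of isoforms were compared with a two-sided exact permutation test. Depth has no meaning for arrays, and their number limits the precision. Groups and replicate numbers came from the sample labels, and no array was left out of the reported fit.

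The members and gene lists were chosen with earlier results of these data known. Named genes are the isoform pairs, catalytic or core subunits, the largest rise and fall of each complex on Day 5 against Day -1 and on Day 2 against Day 1 with arrays that do not overlap, all genes that fell on Day 5 against Day -1, genes below the level filter, and up to 3 genes of a list with the lowest adjusted p. Alternatives were quantile normalization, a level of 200 or none, a floor of 50, choosing probe sets by moderated t, a block for replicate number, a prior with an intensity trend, a fit to 6 arrays, and leaving out arrays. The printed promoter sequences were taken from RefSeq by symbol, and the windows of all members by gene ID. Protein sequences were not used here.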

Additional observations from a re-analysis of the deposited data

How the results depend on the processing

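Counts of subunit genes called depended strongly on single arrays. Leaving out 1 array, or 1 replicate number throughout, gave between 16 and 40 genes on Day 0 against Day -1 (39 with all arrays), 4 and 47 on Day 0.25 against Day 0 (35), 2 and 15 on Day 1 against Day 0.25 (9), 5 and 34 on Day 2 against Day 1 (20), 2 and 35 on Day 5 against Day 2 (9), 12 and 22 on Day 5 against Day -1 (22) and 15 and 57 in the F test (46). With no level filter 19 genes were called on Day 0.25 against Day 0 and 5 on Day 1 against Day 0.25. With only the 6 arrays of the time points compared, 12 were called on Day 2 against Day 1, 1 on Day 5 against Day 2 and 14 on Day 5 against Day -1. With values below 50 raised to 50, the change relative to the partner was 5.61 for Cox6a2, 2.59 for Cox8b and 0.0664 for Cox7a1. On leaving out 1 array it lay between 10.14 and 10.37 for Cox6a2, 6.41 and 6.83 for Cox8b, -0.61 and -0.44 for Cox7a1, -0.23 and -0.05 for Cox4i2, -0.51 and -0.15 for Cox6b2, -0.14 and 0.20 for Ndufa4l2, 0.19 and 0.35 for Atp5g2, and 0.05 and 0.33 for Atp5g3. Atp5pb on Day 5 against Day -1 turned to -0.33 on its other probe set. Of 1020 values of single named genes under an alternative, this one included, 917 kept their side of the threshold, 86 lost a call and 16 gained one. Of the 917, 41 that were not past the threshold changed sign. The causes were not tested.

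The labels do not say whether arrays that share a replicate number are paired, and 3 arrays per time point are too few to settle it. In the 6 comparisons, the r of deviations from the mean between such arrays ranged from -0.56 to 0.55, and at most 2 of 3 arrays correlated best with their namesake. With the replicate number as a block, the counts were 31, 28, 6, 17, 8 and 19 in the 6 comparisons in the order above and 38 in the F test. Signals close to the floor of the scale limit the fold changes of Cox6a2 and Cox8b.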
